A study of Mus musculus with 39 samples.

Results

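Livers of male mice given phenobarbital for 28 days were compared with livers of control mice of the same day. The comparison uses 10 of the 39 arrays of the series, the 5 labelled as treated and the 5 labelled as control at 28 days, and the labels alone chose them. All animals were B6C3F1/Crl hybrids (C57BL/6 sire, C3H/He dam) that were 29 to 32 days old on arrival and were acclimatised for 5 days. Treated animals drank water with phenobarbital at 0.05% (w/v), and the controls of the same day were not given it. Total RNA from whole liver, with every cell type of the organ in it, was labelled and hybridised to Affymetrix mouse arrays, which carry 1 or more probe sets per gene. The other 29 arrays, of 1, 7 and 91 days, contributed to the estimate of the spread and to comparisons of the day 28 difference with those of other days.

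Phenobarbital is a barbiturate that activates the constitutive androstane receptor (CAR), a nuclear receptor of hepatocytes, by an indirect route that involves the epidermal growth factor receptor. Activated CAR enters the nucleus, binds DNA together with the retinoid X receptor and turns on genes of drug oxidation, conjugation and export, most strongly in the hepatocytes around the central vein. In mouse liver it also causes enlargement of hepatocytes and a short burst of cell division, and long treatment promotes liver tumours.

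A gene's level is the log2 signal of its probe set as deposited, and a difference is phenobarbital minus control on that log2 scale. A gene was called, and is said to have risen or fallen, at a Benjamini-Hochberg adjusted p under 0.05 in limma over the 12580 genes tested. The labels do not say that each array is a separate animal, so each p-value reflects only how these samples vary, and 5 arrays a group limit the precision. Replicate arrays of day 28 correlated at 0.989 to 0.996 within a group. The 14 tested hepatocyte genes averaged 13.72 to 13.78 in the controls and 13.70 to 13.76 with phenobarbital, so that these markers were high on every array. Of these genes 2 rose and 3 fell, 35.7% against 29.2% of all genes tested. Of the 7 kidney markers on the array 2 were below the lower quartile of the array on every day 28 array, and none of the 3 tested was called.

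The groups also differed in a technical measure. For the array's own control probe sets to Actb and Gapdh, the signal at the 3' end minus that at the 5' end, which grows as RNA is shortened or incompletely copied, averaged 0.657, 0.619, 0.718, 0.806 and 0.516 in controls 1 to 5. It was 0.441, 0.441, 0.503, 0.498 and 0.422 in phenobarbital arrays 1 to 5, so the groups did not overlap. The difference of the means was -0.202, with an exact 2-sided permutation p of 0.00794, the smallest that 5 against 5 arrays can give. The spike-in hybridisation controls were also lower with phenobarbital, at 10.86 ± 0.0796 against 11.21 ± 0.236 (SD, n = 5 each; exact permutation p 0.0317). Gene groups with calls are therefore given with the number of calls that were kept when the 3' minus 5' difference was added to the fit as a covariate.

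After 28 days 1403 genes were higher with phenobarbital, 11.2% of those tested, and 2276 were lower, 18.1%. Together these are 3679 genes or 29.2%. Most differences were small. Only 69 genes rose and 38 fell by 2-fold or more, and 2968 calls, 80.7%, were under 0.5 on the log2 scale. All 5 phenobarbital arrays lay above all 5 controls for 730 genes, 5.8%, and below them for 1207 genes, 9.59%. The balance of the directions depended on the scaling: rises were 38.1% of the calls as deposited, 57.9% after quantile normalization and 53.4% after centring, while the median over all genes was -0.02, 0.04 and 0.01. The most raised and lowered genes span drug metabolism, an imprinted cluster, a retinoid-degrading enzyme, secreted proteins and taurine synthesis.

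**Figure D1:**
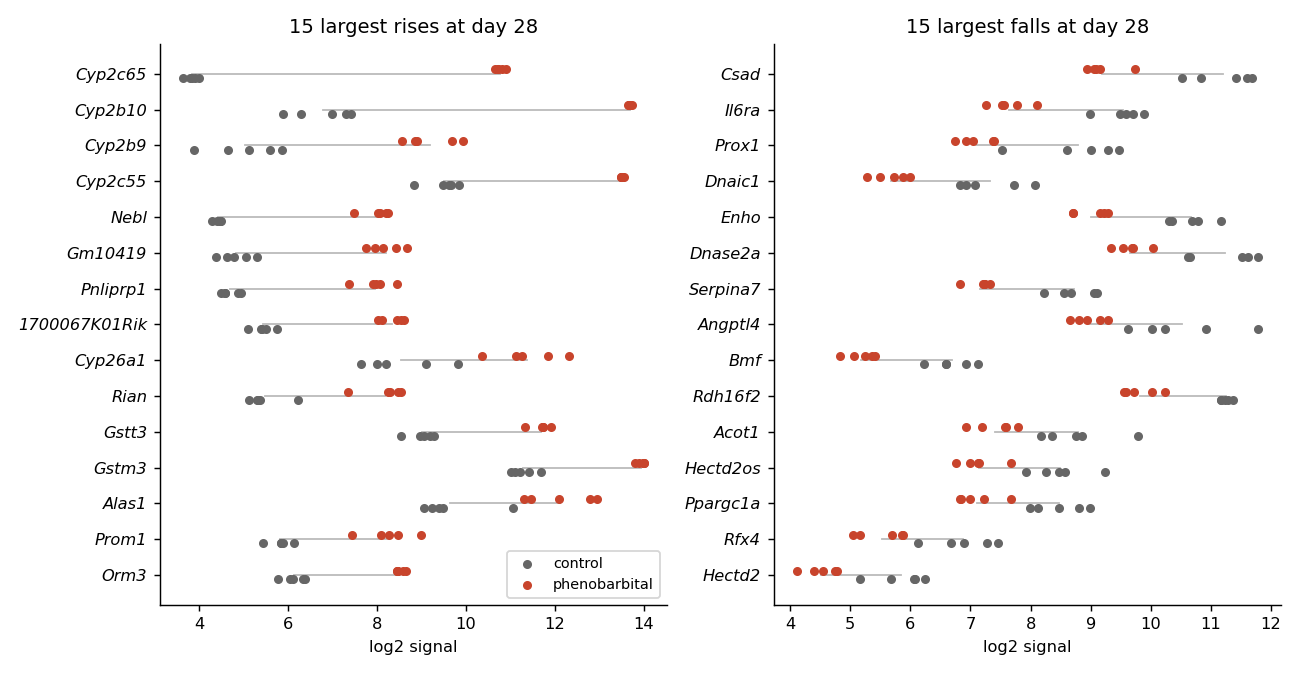
Log2 signal (horizontal axis) in each of the 10 day 28 arrays for called genes without overlap between the groups, the 15 with the largest rise and the 15 with the largest fall; each point is 1 array, controls grey and phenobarbital red. Cyp2b10 and Cyp2c65 moved from control means of 6.78 and 3.83 to 13.68 and 10.76, while Csad, the largest fall shown, went from 11.21 to 9.19.

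The cytochromes P450 that oxidise drugs showed the largest rises. Of 15 tested members of the Cyp2a, Cyp2b and Cyp2c families 10 rose and 2 fell, with a median difference of 0.71. With the covariate 8 of the rises and both falls were kept. Cyp2b10, the classical CAR target, read 7.41, 6.99, 7.29, 5.88 and 6.3 in the 5 controls and 13.67, 13.68, 13.73, 13.66 and 13.65 in the 5 phenobarbital arrays. The treated arrays were nearly alike, whereas the controls spanned more than 1 log2 unit. The difference was 6.90 (SE 0.21; 120-fold; adjusted p 4.78e-24). Cyp2c65 read 3.91, 4.0, 3.63, 3.8 and 3.83 in controls and 10.72, 10.81, 10.65, 10.72 and 10.91 with phenobarbital, a difference of 6.93 (SE 0.33; adjusted p 3.79e-18). The control values lay below the lower quartile of the control arrays (4.388 to 4.459), so they were not shown to be above background and the difference may be a lower bound. The same holds for the controls of Sult3a1 and Ect2 described further on. Cyp2c55 was already at 8.84 to 9.85 in controls and reached 13.48 to 13.55, a difference of 4.01 (SE 0.22; adjusted p 3.78e-16). Cyp2b9, a form that is higher in females than in males, was variable in controls, at 5.59, 5.87, 5.11, 4.65 and 3.89. With phenobarbital it read 8.57, 9.69, 9.94, 8.86 and 8.90, and no array overlapped (difference 4.17, SE 0.55, adjusted p 1.25e-06). Cyp2b13, its close relative, rose less, from 5.79 ± 0.28 to 7.70 ± 0.83 (SD, n = 5 each; adjusted p 0.0097), a call that was lost with the covariate at a difference of 1.84. The probe sets of these families share sequence with their relatives, so signal may be split or shared between members.

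The response within the Cyp2c family ran both ways. Cyp2c39 fell from 8.48 to 8.99 in controls to 7.23 to 8.04 (difference -1.05, SE 0.28, adjusted p 0.00576), and Cyp2c68 fell from 12.95 to 13.32 to 12.40 to 12.71 (difference -0.58). These members are named because they were the exceptions to the direction of the rest. In the Cyp3a family 3 of 4 tested members rose and all 3 were kept with the covariate. Cyp3a11, the main drug-oxidising Cyp3a enzyme of mouse liver, rose by only 0.15, from a control mean already at 14.48 ± 0.05 (SD, n = 5; adjusted p 0.00126). Cyp3a44 rose by 0.66 and Cyp3a13 by 0.42. Among 23 other drug-metabolising P450 genes 5 rose and 4 fell, and with the covariate 4 of the rises and 0 of the falls were kept. Cyp2g1 rose by 1.36 (adjusted p 1.04e-05) and Cyp1a2 by 0.54 (adjusted p 0.000162).

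Many conjugation enzymes rose. Of 19 tested glutathione transferases, which attach glutathione to reactive compounds, 12 rose and 0 fell, and 9 rises were kept with the covariate. The median difference was 0.42, against -0.02 over all genes. Gstm3 read 11.42, 11.21, 11.02, 11.11 and 11.69 in controls and 14.00, 13.98, 14.00, 13.80 and 13.89 with phenobarbital. Gstt3 read 9.28, 9.06, 8.96, 8.54 and 9.18 in controls and 11.32, 11.90, 11.73, 11.71 and 11.74 with phenobarbital. Neither gene overlapped between groups, and the differences were 2.65 (SE 0.14, adjusted p 4.31e-17) and 2.68 (SE 0.19, adjusted p 8.71e-13). The other probe set of Gstm3 gave 3.9. Gstm2, Gsta2 and Gstm4 rose by 1.65, 1.19 and 1.15. Glutathione transferase genes of the mu class are similar in sequence and their separate values are uncertain.

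Of 18 sulfotransferases and methyltransferases 8 rose and 0 fell, with 5 rises kept. Sult1c2 rose by 1.20 (adjusted p 2.52e-08) and Sult1d1 by 0.76. Sult3a1 rose from 3.56 to 4.28 in controls to 4.80 to 6.13, a difference of 1.70 that was no longer called with the covariate (1.81) or without phenobarbital array 2 (1.57). Among 13 glucuronidation genes 4 rose and 1 fell, with 3 and 0 kept. Ugdh, which makes the UDP-glucuronic acid that this reaction uses, rose by 0.67 (adjusted p 1.03e-07), and Ugt2b34 by 0.65. Of 11 carboxylesterases, which cleave ester bonds of drugs and lipids, 3 rose, led by Ces2a from 12.54 ± 0.12 to 13.66 ± 0.04 (SD, n = 5 each; adjusted p 6.46e-09), and 1 of them was kept with the covariate.

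Other oxidising and antioxidant enzymes gave a more mixed picture. Of 29 other phase I enzymes 10 rose and 5 fell, with 8 and 1 kept. Ephx1, the microsomal epoxide hydrolase, rose by 0.63 (adjusted p 1.24e-05), while Aox3, an aldehyde oxidase, fell by 0.57 (adjusted p 0.00791). Of 21 genes of the NRF2 programme, the cell's response to electrophiles, 7 rose and 1 fell, with 3 rises kept. Srxn1, which repairs oxidised peroxiredoxins, rose by 0.77 (adjusted p 3.53e-07; another probe set 0.16) and the quinone reductase Nqo1 by 0.75 (adjusted p 0.000347).

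Transporters moved in both directions, with 6 of 24 tested members higher and 5 lower, and 3 of each kept. Abcc4, an exporter of bile acids and conjugates into blood, read 5.90, 5.63, 5.94, 5.50 and 5.40 in controls and 8.15, 8.08, 8.37, 6.99 and 7.53 with phenobarbital. The difference was 2.15 (SE 0.26, adjusted p 2.27e-07), with no overlap. Abcc3, a related exporter, rose by 0.83 (adjusted p 0.00122), a call lost with the covariate (0.69). Slc10a2, the apical bile acid carrier, rose by 0.89 and was also lost with it (0.81). Slc51a, a subunit of the organic solute exporter, rose by 0.49 and its call was kept, as was that of the organic anion carrier Slc22a7, which fell by 0.55.

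Every P450 needs heme. Alas1, the rate-limiting enzyme of heme synthesis, read 9.39, 9.05, 9.49, 9.23 and 11.05 in controls and 12.79, 11.30, 12.08, 11.46 and 12.94 with phenobarbital. Control 5 stood well above the other controls, yet all treated arrays were above it (difference 2.48, SE 0.43, 5.57-fold, adjusted p 6.14e-05). Of the 13 tested genes of heme synthesis and electron supply 5 rose and 1 fell. That 1, Cpox, a later enzyme of the same pathway, fell by 0.55 (adjusted p 0.00293), a call lost with the covariate (-0.21). Its other probe set above the filter gave -1.02, and 1 below the filter gave -0.91. With the covariate 2 rises and 0 falls of the list were kept.

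Most tested genes of the heat shock response rose at day 28. Of 14 tested members 10 rose and 0 fell, with a median of 0.43, and 6 did not overlap between groups. With the covariate 4 rises were kept and the median was 0.33, and with the covariate fitted to the day 28 arrays alone 0 were kept. Heat shock factor trimers bind the promoters of such genes through inverted repeats of the unit GAA, here searched as GAANNTTC and TTCNNGAA, which are each the same on both strands. Hspa1a and Hspa1b encode nearly identical inducible chaperones from adjacent genes. The 250 bases before their starts are shown to let the shared element and the near identity be seen: 3 of 250 bases differ. The sequences are RefSeq's on GRCm38.p6, Hspa1a at chr17:34972157-34972406 and Hspa1b at chr17:34959239-34959488, both on the minus strand and written 5′ to 3′, with the 1 match in each, which begins 104 bases before the start, in capitals.
Hspa1a: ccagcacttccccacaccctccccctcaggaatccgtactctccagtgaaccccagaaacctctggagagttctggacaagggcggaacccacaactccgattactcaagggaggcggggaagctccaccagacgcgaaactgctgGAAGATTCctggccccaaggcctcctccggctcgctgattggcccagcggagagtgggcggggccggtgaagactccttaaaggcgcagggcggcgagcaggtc
Hspa1b: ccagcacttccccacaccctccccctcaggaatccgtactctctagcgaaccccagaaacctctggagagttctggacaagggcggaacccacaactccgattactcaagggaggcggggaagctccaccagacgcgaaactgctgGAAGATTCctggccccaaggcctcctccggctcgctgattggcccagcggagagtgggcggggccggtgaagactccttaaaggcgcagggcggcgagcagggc
Either form was found in 12.8% of the 32851 promoters of the same length, and GAANNTTC in 6.69%. Of the tested heat shock genes 11 had a promoter in the RefSeq table and 7 of these held either form, against 14.5% of all 27025 genes with a promoter. The promoters of Bag3 and Dnajb1 held neither in this window. A match is a description of the letters and not of binding.

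Hspa1a read 8.32, 7.41, 8.09, 7.26 and 7.49 in controls and 11.83, 9.80, 9.41, 9.49 and 9.41 with phenobarbital. All treated arrays were above all controls, and phenobarbital array 1 stood about 2 log2 units above the other treated arrays. The difference was 2.27 (SE 0.50, adjusted p 0.000922) and ranged from 1.81 to 2.42 when arrays were left out in turn, called each time. Hspa1b read 12.60, 12.14, 12.51, 12.55 and 12.87 in controls and 13.94, 13.41, 13.44, 13.55 and 13.71 with phenobarbital, a difference of 1.08 (adjusted p 0.0105) that was not called with the covariate (1.04). Its 2 other probe sets gave 1.79 and 1.60. Given the near identity of the genes, the separate values of Hspa1a and Hspa1b are uncertain. Dnajb1, the co-chaperone that works with these proteins, read 9.82, 9.48, 9.56, 9.31 and 9.49 in controls and 12.25, 10.51, 10.40, 10.33 and 10.43 with phenobarbital. Array 1 was again the highest, and the difference of 1.25 (adjusted p 0.00162) was 0.89 without it, still called. Bag3, which couples these chaperones to protein degradation, read 10.42, 10.44, 10.13, 9.91 and 10.43 in controls and 11.95, 11.28, 11.10, 11.06 and 11.69 with phenobarbital (difference 1.15, SE 0.18, adjusted p 2.67e-05). Hsph1 rose by 0.54 (adjusted p 0.0392) and lost its call without any of 6 of the 10 arrays, with a difference of 0.42 when phenobarbital array 1 was left out, and it was also lost with the covariate (0.49). Atf3, a stress-induced transcription factor, rose by 0.80, but by 0.46 and without a call when that array was left out, and its call was lost with the covariate (0.67).

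The proteasome, which degrades tagged proteins, had 13 of 27 tested subunits higher and 1 lower, with small differences (median 0.13). With the covariate 1 of the 13 was kept. Psmb5 rose by 0.29 (adjusted p 0.000137) and Psmb7 by 0.53 (adjusted p 0.011). Of 25 endoplasmic reticulum chaperones and unfolded protein response genes 4 rose and 1 fell, and none was kept with the covariate.

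**Figure D2:**
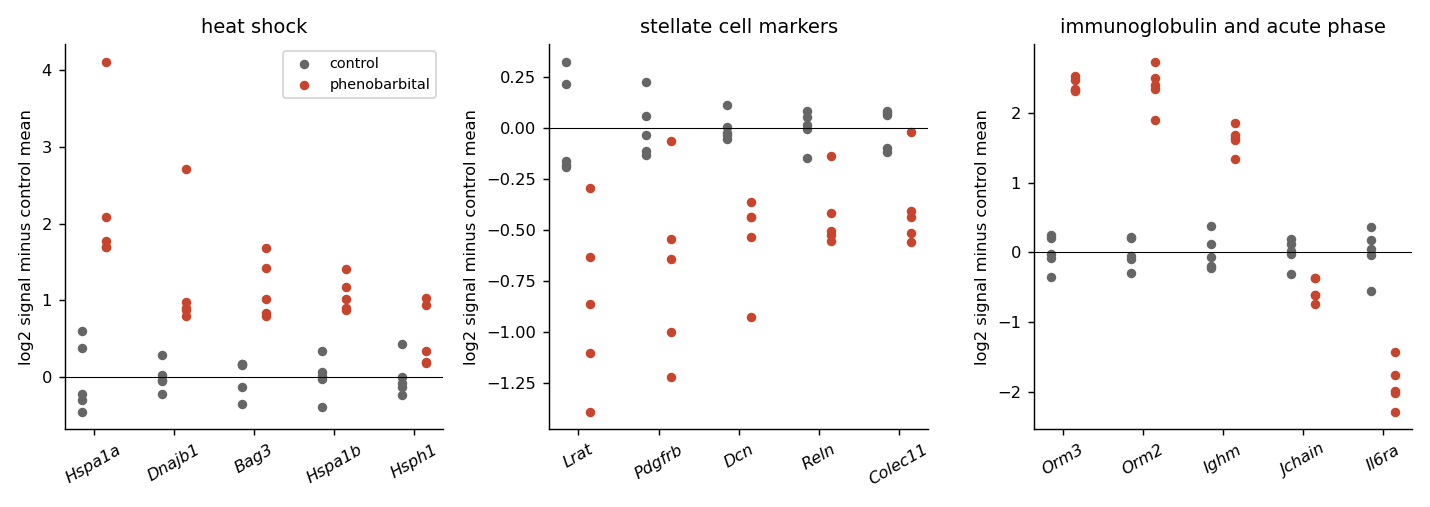
Log2 signal minus the mean of the 5 controls (vertical axis) for each day 28 array in 3 sets of genes: heat shock genes, stellate cell markers, and immunoglobulin and acute phase genes with the interleukin 6 receptor; each point is 1 array, controls grey and phenobarbital red. Hspa1a and Dnajb1 have 1 treated array, number 1, far above the others, while the treated arrays of Orm3 lie together at 8.44 to 8.65 in log2 signal against 5.77 to 6.38 in controls.

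Across the 27 tested genes of thyroid, retinoid, vitamin D and steroid handling 6 rose and 4 fell, with 4 and 3 kept with the covariate, and the median was 0.01. Cyp26a1, which degrades retinoic acid and is itself induced by it, read 9.09, 7.63, 8.20, 9.81 and 7.99 in controls and 12.31, 11.26, 11.13, 10.36 and 11.85 with phenobarbital. Both groups were widely spread but did not overlap (difference 2.84, SE 0.63, 7.14-fold, adjusted p 0.00101), and the call was kept with the covariate at 2.69. Its promoter is shown because it holds a retinoic acid response element. The 250 bases before the start lie at chr19:37697558-37697807 on the plus strand (RefSeq, GRCm38.p6). The match to AGNTCANNNNNAGNTCA, a direct repeat with a spacer of 5 bases, was searched on both strands and lies on the opposite strand 32 bases before the start, in capitals.
Cyp26a1: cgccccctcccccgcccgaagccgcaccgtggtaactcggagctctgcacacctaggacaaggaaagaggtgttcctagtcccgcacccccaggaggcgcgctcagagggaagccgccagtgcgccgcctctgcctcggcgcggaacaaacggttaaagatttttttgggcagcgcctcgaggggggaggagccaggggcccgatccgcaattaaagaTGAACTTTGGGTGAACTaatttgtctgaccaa
This motif was found in 65 of the 32851 promoters, 0.198%.

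Rdh16f2, a retinol and steroid dehydrogenase, was on no list and is named as one of the largest falls. It read 11.37, 11.23, 11.29, 11.17 and 11.17 in controls and 9.58, 9.72, 10.02, 10.23 and 9.55 with phenobarbital. Every treated array was well below every control. The difference was -1.43 (SE 0.14, adjusted p 4.54e-09). Lrat, which esterifies retinol for storage in stellate cells and is also on the list of stellate markers, fell by 0.86 (adjusted p 0.00553). Serpina7, the thyroxine-binding globulin of plasma, read 8.68, 9.10, 9.05, 8.56 and 8.22 in controls and 7.32, 6.83, 7.24, 7.20 and 7.23 with phenobarbital (difference -1.55, SE 0.31, adjusted p 0.000342). The steroid dehydrogenase Hsd17b6 fell by 0.68 (adjusted p 0.00257), but its other probe set gave 0.10.

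Some genes of fat synthesis rose and some of fat oxidation fell. Of 25 tested genes of fatty acid and triglyceride synthesis 11 rose and 0 fell, with 5 kept with the covariate and 0 with it fitted to the day 28 arrays alone. Thrsp, a lipogenic regulator, read 13.10, 12.89, 12, 11.72 and 12.79 in controls and 13.67, 14.02, 14.06, 13.88 and 13.97 with phenobarbital (difference 1.42, SE 0.19, adjusted p 9.71e-07). Its 2 other probe sets gave 1.85 and 0.25. Pnpla3, a lipid droplet protein induced on feeding, rose by 1.55 (adjusted p 0.00292). Fasn, the fatty acid synthase, and Elovl6, an elongase, each rose by 0.98, and the Fasn groups overlapped. All of these named calls were kept with the covariate over all 39 arrays. A second probe set of Elovl6 gave 0.38. Of 22 cholesterol synthesis and uptake genes 5 rose and 0 fell, with 0 kept.

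Of 31 tested targets of PPARA, the receptor that drives fatty acid oxidation in fasting, 15 fell and 0 rose, with 7 kept with the covariate, 0 with it fitted to the day 28 arrays alone, and a median of -0.18. Ppara read 10.65, 10.66, 11.03, 10.99 and 10.40 in controls and 9.72, 10.12, 9.68, 9.84 and 10.03 with phenobarbital (difference -0.87, SE 0.12, adjusted p 1.44e-06). Its 2 other probe sets gave -1.21 and -0.70. Angptl4, an inhibitor of lipoprotein lipase, read 10.23, 9.62, 11.78, 10.91 and 10.02 in controls and 8.93, 9.29, 8.81, 9.16 and 8.66 with phenobarbital, so that the size of its difference (-1.54, adjusted p 0.00385) rested on a wide control spread and its call was lost with the covariate (-1.48). Acot1, an acyl-CoA thioesterase, fell by 1.37 and was also lost with it (-1.36). Plin5, a lipid droplet protein of oxidative tissue, fell by 0.73 and was kept. Cyp4a14, a fatty acid hydroxylase, fell by 1.87 (adjusted p 0.0407), but its groups overlapped and the call was lost without any of 8 of the 10 arrays (-1.33 without control 3) and with the covariate (-1.69).

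Among the 24 genes of glucose, glycogen and fasting 4 rose and 5 fell, with 0 and 3 kept with the covariate. The share of falls was near that of all genes tested. Ppargc1a, a coactivator of mitochondrial genes and of glucose production, read 8.47, 8.13, 8.98, 8.80 and 7.99 in controls and 7.68, 6.99, 7.23, 6.83 and 6.84 with phenobarbital (difference -1.36, SE 0.29, adjusted p 0.000756). Its call and that of Ppargc1b (difference -0.86) were lost with the covariate, at -0.99 and -0.68. The 4 other probe sets of Ppargc1a gave -0.74 to -1.13. Pck1, the first committed enzyme of glucose production, fell by 1.01 (adjusted p 0.0178) with overlapping groups. It was lost with the covariate (-0.87) and without control 3 (-0.85).

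Of 26 tested genes of the EGF receptor, MET and growth factor group 6 fell and 0 rose, with 2 kept with the covariate and a median of -0.16. At 23.1% this share of falls was near the 18.1% of all genes tested. Irs2, an adaptor of the insulin receptor, read 8.23, 8.24, 8.15, 8.53 and 7.96 in controls and 7.37, 7.05, 7.04, 7.10 and 6.80 with phenobarbital (difference -1.15, SE 0.23, adjusted p 0.000323). The insulin receptor itself, Insr, fell by 0.39 and the hepatocyte growth factor receptor Met by 0.45, and both were lost with the covariate (-0.28 and -0.27). A second probe set above the filter gave -0.04 for Insr and -0.10 for Met. Foxo1, a transcription factor that insulin restrains, fell by 0.46 and was kept, but its other probe sets above the filter gave -0.17 and -0.15. Among 31 nuclear receptors and cofactors 8 fell and 0 rose, with 3 kept. These falls were 25.8% of the list, against 18.1% of all genes tested. In either direction 29.2% of all genes tested were called. Prox1, a hepatocyte transcription factor and corepressor, read 9.01, 9.29, 8.61, 9.47 and 7.52 in controls and 6.74, 7.38, 7.04, 6.93 and 7.39 with phenobarbital. Control 5, whose 3' minus 5' difference was the lowest of the controls, lay next to the treated arrays. The difference was -1.68 (SE 0.30, adjusted p 8.19e-05), whereas its 2 other probe sets gave 0.03 and -0.83. The glucocorticoid receptor Nr3c1 fell by 0.31, lost with the covariate (-0.16). Nr1i3, which encodes CAR, differed by -0.20 and was not called (adjusted p 0.213).

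The largest fall among genes whose groups did not overlap was of Csad, the enzyme that makes hypotaurine for taurine synthesis. It read 10.83, 10.52, 11.41, 11.60 and 11.68 in controls and 9.73, 9.09, 9.15, 9.06 and 8.94 with phenobarbital, a difference of -2.01 (SE 0.25, 4.03-fold lower, adjusted p 4.1e-07). It was kept with the covariate at -2.16. Of 20 taurine, methionine and one-carbon genes 7 fell and 0 rose, with 2 kept. Among 26 amino acid and urea genes 3 rose and 7 fell, with 0 and 2 kept, and of 20 apolipoprotein and lipoprotein genes 7 fell and 0 rose, with 3 kept. Scarb1, the receptor for high-density lipoprotein, read 10.96, 10.88, 10.96, 10.98 and 10.54 in controls and 9.92, 10.17, 10.09, 10.09 and 10.09 with phenobarbital (difference -0.79, SE 0.11, adjusted p 3.24e-06). Its 2 other probe sets gave -0.71 and -0.08.

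Of 27 tested acute phase genes 5 rose and 3 fell, 29.6% against 29.2% over all genes tested, with a median of -0.02. Orm2 and Orm3 encode orosomucoids, plasma proteins that bind drugs. Orm3 was among the 15 largest rises without overlap, and Orm2 was not. Orm3 read 6.38, 6.34, 6.05, 5.77 and 6.10 in controls and 8.44, 8.65, 8.59, 8.46 and 8.45 with phenobarbital (difference 2.39, SE 0.18, adjusted p 1.35e-12). Orm2 read 7.88, 7.56, 7.87, 7.37 and 7.61 in controls and 10.39, 10.15, 10.05, 10 and 9.55 with phenobarbital (difference 2.37, SE 0.54, adjusted p 0.00138). Neither overlapped between groups, and both were among the 3 rises of the list kept with the covariate, with 2 falls. The 2 genes are close copies, so their separate values are uncertain. Itih3, an inhibitor chain that rises in acute phase responses, fell by 0.37. Il6ra, the interleukin 6 receptor that drives this response in hepatocytes, read 9.71, 8.98, 9.89, 9.58 and 9.49 in controls and 7.52, 7.55, 7.25, 7.77 and 8.10 with phenobarbital (difference -1.89, SE 0.32, adjusted p 4.99e-05). Its other probe set gave -0.45, so the size depends on which probe set was read, and the reason was not tested.

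Of 30 tested complement and coagulation genes 3 rose and 10 fell, with 0 and 5 kept with the covariate. Klkb1, plasma prekallikrein, fell by 0.53 (adjusted p 6.73e-08), F5, a coagulation cofactor, by 0.42 (adjusted p 1.92e-06), and Mbl1, a mannose-binding lectin of the complement system, by 0.33 (adjusted p 0.000296). The counts of falls depended on scaling, since 5 of the 10 were kept after centring. Of 19 inflammation and chemokine genes 5 rose and 2 fell, with 1 of each kept. The chemokine Ccl9 rose from 11.66 ± 0.15 to 12.46 ± 0.12 (SD, n = 5 each; adjusted p 8.79e-09).

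Markers of cells other than hepatocytes were followed as well. In whole liver, fewer cells of a type and less RNA per cell cannot be told apart. Of 11 tested markers of stellate cells and fibroblasts, the vitamin A-storing and matrix-producing cells of the sinusoid, 5 fell and 0 rose, and all 5 were kept with the covariate over all 39 arrays. With the same covariate fitted to the day 28 arrays alone 0 of the 5 were kept. The median was -0.27. The summed signal of the list was 13.23 to 13.34 in controls and 12.59 to 13.06 with phenobarbital on the log2 scale, without overlap. Lrat read 8.65, 8.16, 8.14, 8.54 and 8.13 in controls and 8.03, 7.22, 7.46, 6.93 and 7.69 with phenobarbital, and its other probe set differed by -1.20. Dcn, which encodes the matrix proteoglycan decorin, read 11.93, 11.92, 11.90, 11.96 and 12.07 in controls and 11.52, 11.42, 11.52, 11.03 and 11.59 with phenobarbital (difference -0.54, SE 0.10, adjusted p 0.000235). Pdgfrb, a receptor for platelet-derived growth factor, read 7.96, 7.77, 7.87, 8.13 and 7.79 in controls and 6.68, 7.36, 7.84, 7.26 and 6.90 with phenobarbital, where array 3 overlapped the controls (difference -0.69, adjusted p 0.000168). The second probe sets of Dcn and Pdgfrb gave -0.20 and -0.19. Reln, a secreted glycoprotein, fell by 0.43 and Colec11, a soluble lectin, by 0.39.

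Of 12 endothelial markers 7 fell and 0 rose, with a median of -0.27, but 1 of the 7 was kept with the covariate. The summed signal was 12.83 to 13.22 in controls and 12.49 to 12.86 with phenobarbital. Fcgr2b, an Fc receptor of sinusoidal endothelium, fell by 0.54, but its other probe sets above the filter gave 0.02, -0.26 and -0.20. Stab2, a hyaluronan scavenger receptor, fell by 0.39 and Clec4g, a sinusoidal lectin, by 0.34. Of these genes Stab2 was kept. Of 12 Kupffer cell and macrophage markers only Cd163, the haemoglobin scavenger receptor, fell (difference -0.69, adjusted p 0.00257), a call kept with the covariate, and the summed signals overlapped at 12.62 to 13 and 12.60 to 13. None of the tested markers of T and NK cells (4), neutrophils (3), red blood cells (2), exocrine pancreas (6), fat (3) or muscle (3) was called. Of 4 tested bile duct markers 1 rose, Epcam, by 0.57, a call lost with the covariate, and its other probe set gave -0.18. Lgals4, a gut epithelial galectin on the mesothelium and gut list, fell by 0.95 (adjusted p 6.99e-05).

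Ighm, the heavy chain of immunoglobulin M, read 9.97, 9.53, 9.40, 9.37 and 9.71 in controls and 11.21, 11.23, 11.45, 11.28 and 10.94 with phenobarbital. The groups did not overlap (difference 1.63, SE 0.26, adjusted p 2.09e-05), and the call was kept with the covariate at 1.78. Its other probe sets above the filter gave 2.10, 0.29 and -0.13. The rest, below the filter for low signal, gave -0.15 to 0.24. Jchain, which joins immunoglobulin M into polymers, moved the other way, from 5.80 ± 0.19 to 5.27 ± 0.17 (SD, n = 5 each; adjusted p 0.0195), a call lost with the covariate (-0.30) and without control 1 (-0.49) or phenobarbital array 5 (-0.48). Of the 5 tested B cell and plasma cell markers 1 rose and 1 fell, these being Ighm and Jchain.

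Pericentral genes depend on Wnt signals from the endothelium of the central vein. Of 21 tested Wnt targets and pericentral genes 3 rose and 5 fell, with 3 and 1 kept with the covariate. Lgr5, a receptor that amplifies Wnt signalling, read 7.37, 7.46, 6.80, 7.24 and 7.24 in controls and 6.04, 6.23, 6.47, 6.24 and 5.95 with phenobarbital (difference -1.04, SE 0.19, adjusted p 0.000131). Its other probe set, below the filter for low signal, gave 0.47. Znrf3, a ligase that removes Wnt receptors, fell by 0.72 and was lost with the covariate (-0.42), and another probe set gave 0.01. Rhbg, an ammonia channel of pericentral cells, rose by 0.85 (adjusted p 8.5e-07). Glul, the glutamine synthetase of the same cells, fell by 0.23 and was lost with the covariate (-0.19), and its other probe set gave 0.05. Ctnnb1, which encodes beta-catenin, differed by -0.14 (adjusted p 0.0103), was lost with the covariate (-0.13), and had a mean of 0.13 when all its probe sets were averaged, so that no direction can be given.

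Of 19 apoptosis regulators 2 rose and 5 fell, with 1 and 3 kept with the covariate. In all 36.8% of the list was called, near the 29.2% of all genes tested. The falls named here include genes that promote cell death and 1 that opposes it. Bcl2l11, a BH3-only activator of cell death, fell by 0.71, Apaf1, the scaffold that activates caspases, by 0.69, and the executioner caspase Casp6 by 0.58, of which Apaf1 was lost with the covariate (-0.43). The other Bcl2l11 probe set above the filter gave -0.29. Birc3, an inhibitor of apoptosis, fell by 0.45 (adjusted p 0.0043). Bmf, another BH3-only activator, was on no list and is named as one of the largest falls. It fell from 6.70 ± 0.34 to 5.18 ± 0.24 (SD, n = 5 each; adjusted p 2.66e-07), although another probe set above the filter gave -0.02 and 1 below it -0.09. Bcl2, which blocks cell death, rose by 0.35, but its other probe set above the filter gave -0.02. Of 21 tested genes of the p53 and DNA damage response 2 rose and 3 fell, with 1 and 2 kept with the covariate. The share called was 23.8%, below the 29.2% of all genes tested. From this list Perp, a desmosomal target of p53, fell by 0.47 (adjusted p 5.76e-06). Gadd45b, a stress gene induced by CAR, read 7.22, 7.27, 7.55, 7.33 and 6.79 in controls and 8.93, 8.54, 7.95, 8.69 and 8.47 with phenobarbital (difference 1.29, SE 0.21, adjusted p 3.15e-05). Its 2 other probe sets gave 0.96 and 0.39.

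Few cell cycle genes were called at day 28. None of 24 mitosis genes was called by limma at an adjusted p under 0.05, and 1 of 25 DNA replication genes was higher and 1 lower, with 1 and 0 kept with the covariate. On the first day of treatment 21 of the mitosis genes and 23 of the replication genes were higher. Mki67, the proliferation marker, differed by 0.24 (adjusted p 0.646) at day 28 and by 1.40 (adjusted p 0.0055) at day 1. Fen1, a replication nuclease, rose by 0.51 (adjusted p 5.77e-05), but its other probe set gave -0.06. Top2a, a topoisomerase of dividing cells, missed the threshold at 0.73 (adjusted p 0.0579) and was called without phenobarbital array 4 (0.85), and another probe set gave 0.03. Ect2, an exchange factor of cell division, rose by 1.04 and lost its call with the covariate (1.06) and without phenobarbital array 1 (0.91). Cdkn1a, the cell cycle inhibitor p21, differed by -0.43 and was not called (adjusted p 0.263).

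Of 23 tumour and fetal liver markers 8 rose and 1 fell, with 3 and 1 kept with the covariate. Prom1, a membrane protein of progenitor cells, read 5.83, 6.14, 5.88, 5.83 and 5.44 in controls and 8.27, 8.47, 8.98, 7.44 and 8.09 with phenobarbital (difference 2.43, SE 0.37, adjusted p 1.13e-05). Ccn4, a matrix-associated Wnt target, rose by 1.99 (adjusted p 1.76e-10). In the Dlk1-Dio3 imprinted cluster, whose maternal copy makes long noncoding RNAs and microRNAs, both called members of 4 tested rose and were kept with the covariate. Meg3 rose by 2.25 and Rian by 2.71. Other probe sets of Meg3 differed by 0.11 to 2.56. Another of Rian gave 2.76, and those below the filter for low signal gave -0.03 and 0.27. Dnmt3a, a DNA methyltransferase, fell by 0.48 (adjusted p 0.000234) with overlapping groups, and its 4 other probe sets gave -0.23 to -1.09. Of 15 genes on the list of DNA methylation and hydroxymethylation 3 rose and 1 fell, all 4 kept. These were 26.7% of the list, near the 29.2% of all genes tested. The rises were of Gadd45b, Idh1 (0.15) and Idh2 (0.38), and the fall was of Dnmt3a. None of Dnmt1, Dnmt3b, Tet2 and Tet3 was called.

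**Figure D3:**
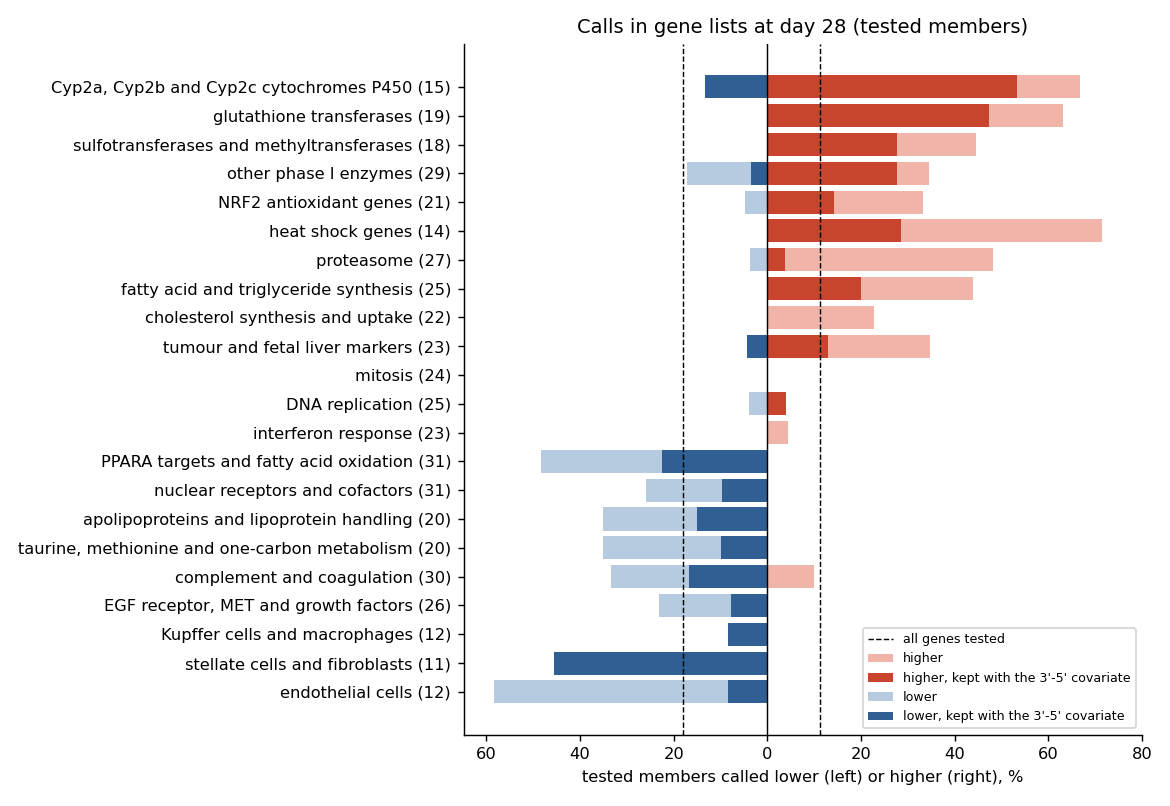
Percent of the tested members of each gene list (horizontal axis) called lower (left) and higher (right) at day 28; the dark part of each bar is the share kept with the 3' minus 5' covariate, and dashed lines mark all genes tested, 18.1% lower and 11.2% higher. Glutathione transferases and heat shock genes have 0 falls, and PPARA targets and stellate markers have 0 rises.

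The share of calls kept with the 3' minus 5' covariate differed with the size of the difference. With the covariate 411 genes, 3.27%, were called higher and 616, 4.9%, lower. Of the original calls 396 rises and 583 falls were kept. Among rises of 2-fold or more 62 of 69 were kept, 89.9%, and among such falls 24 of 38, 63.2%. For differences between 0.5 and 1 on the log2 scale 67.5% of rises and 51% of falls were kept, and under 0.5 the shares were 18.9% and 18.7%. The covariate also raised the standard error, by a median factor of 1.2, since it differs between the groups. Fitted to the day 28 arrays alone, the covariate raised the standard error by a median factor of 1.61 and kept 84 rises and 33 falls. Among differences of 2-fold or more it kept 47 of 69 rises and 10 of 38 falls. Leaving out controls 3 and 4, which had the highest 3' minus 5' differences, kept 582 rises and 994 falls, with 62 of 69 rises and 30 of 38 falls of 2-fold or more among them.

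**Figure D4:**
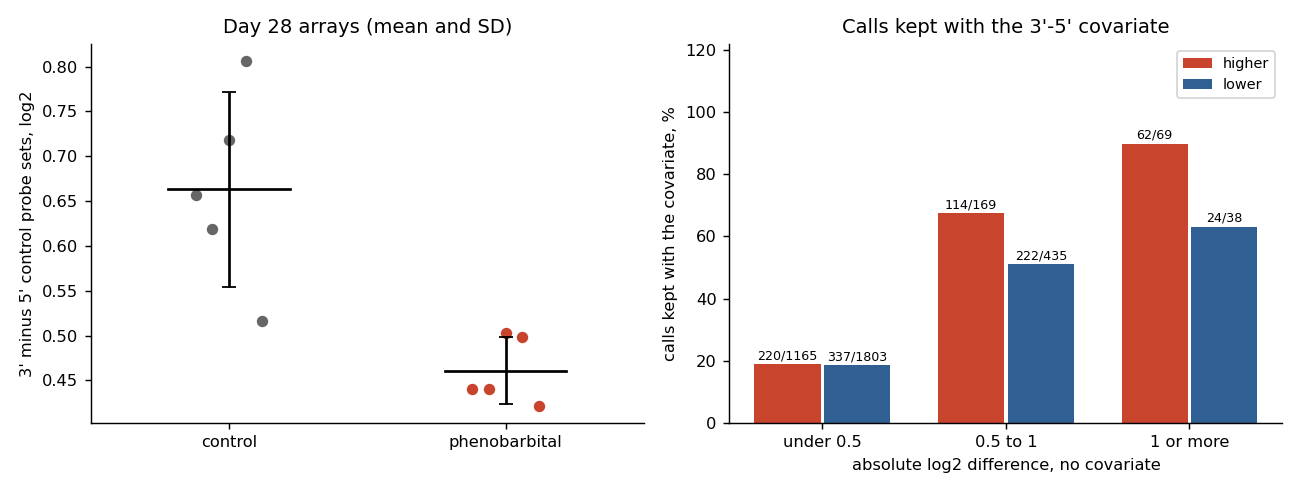
Left, the 3' minus 5' control difference (log2) of each day 28 array, each point 1 array with the group mean and SD; controls lie at 0.516 to 0.806 and phenobarbital arrays at 0.422 to 0.503. Right, the percent of calls kept with this difference as a covariate, by size of the log2 difference and direction; 18.9% of rises under 0.5 and 89.9% of rises of 1 or more were kept.

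The same fit gave the differences at other days, each against its own controls. Rises made up 15.8%, 5.64% and 4.62% of the genes tested on days 1, 7 and 91, and falls 16.7%, 11.4% and 16.1%. Of the day 28 rises 57%, 22.8% and 17.5% were also called higher at days 1, 7 and 91, which is 40.4%, 45.1% and 42.3% of the rises of those days. Of the day 28 falls 55.2%, 18.9% and 16.2% were also called lower, which is 59.7%, 30.2% and 18.2% of the falls of those days. For day 91 the 16.2% was near the 16.1% of all genes tested that fell on that day. Of the day 28 calls 37, 76 and 145 were called in the opposite direction on days 1, 7 and 91. The control groups of days 1, 7 and 91 had mean 3' minus 5' differences of 0.54, 0.465 and 0.57, and the phenobarbital groups 0.446, 0.437 and 0.623, so that this measure was lower with phenobarbital on days 1, 7 and 28 and higher on day 91.

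The difference at day 28 minus that at day 7 was called higher for 752 genes, 5.98%, and lower for 727, 5.78%. With the covariate 58 and 46 were called, and with the hybridisation controls as a covariate 1 and 0. Without control 4 the total was 814 and without control 5 it was 2428. Nebl, a muscle-type actin-binding protein, was at 0.15, 0.59, 3.58 and 4.33 on days 1, 7, 28 and 91 (day 28 minus day 7: 2.99, adjusted p 2.8e-11). Only 1 of its 3 probe sets passed the filter for low signal, and the others, below it, differed by 0.20 and 0.35 at day 28. Cyp2c65 was at 1.06, 3.86, 6.93 and 7.13 (day 28 minus day 7: 3.06, adjusted p 0.000317). Rian was at -0.42, -0.07, 2.71 and 3.02, and Meg3 at -0.19, 0.28, 2.25 and 3.02. All 4 of these genes had a larger difference on days 28 and 91 than on day 1, and their day 28 minus day 7 calls were kept with the covariate. Sult3a1 went the other way, at 3.57, 6.02, 1.70 and 2.60 (day 28 minus day 7: -4.32, adjusted p 0.00171), also kept. Prox1 was at -1.44, 0.69, -1.68 and 0.22, called lower on days 1 and 28 (day 28 minus day 7: -2.37, adjusted p 0.00142), a call kept with the covariate.

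The heat shock genes differed less clearly between days. Bag3 was at 0.19, -0.00, 1.15 and 0.01 on days 1, 7, 28 and 91, and its day 28 difference exceeded that of day 7 by 1.15 (adjusted p 0.00653) and that of day 91 by 1.14 (adjusted p 0.00415). Neither call was kept with the covariate, at 0.91 and 0.78. Hspa1a was at 0.45, 0.46, 2.27 and 0.52, but its day 28 minus day 7 value of 1.81 missed the threshold (adjusted p 0.0826), as did the day 28 minus day 91 value of 1.75 (adjusted p 0.0687). Dnajb1 was at 0.16, 0.06, 1.25 and 0.49 (day 28 minus day 7: 1.19, adjusted p 0.0531). Of the 14 heat shock genes 6 were higher at day 1, 1 at day 7 and 1 at day 91.

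The difference at day 28 minus that at day 91 was called higher for 1578 genes, 12.5%, and lower for 1149, 9.13%. With the covariate 0 genes were called by limma in either direction (1049 and 726 at an unadjusted p under 0.05), and with the hybridisation controls as a covariate 75 and 60 were. Without control 4 the total was 1736 and without control 5 it was 3612. Alas1 was at 2.39, 1.39, 2.48 and 0.34 on days 1, 7, 28 and 91 (day 28 minus day 91: 2.14, adjusted p 0.013). Gstt3 was at 2.39, 2.88, 2.68 and 1.30 (1.38, adjusted p 0.00181). Cyp2b13 was at 2.14, 4.09, 1.91 and 4.81 (-2.90, adjusted p 0.0113), and Ppargc1a at -1.39, 0.14, -1.36 and 0.73 (-2.09, adjusted p 0.00177). None of these 4 was kept with the covariate. Both comparisons use the day 28 arrays, so they share any peculiarity of those arrays.

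**Figure D5:**
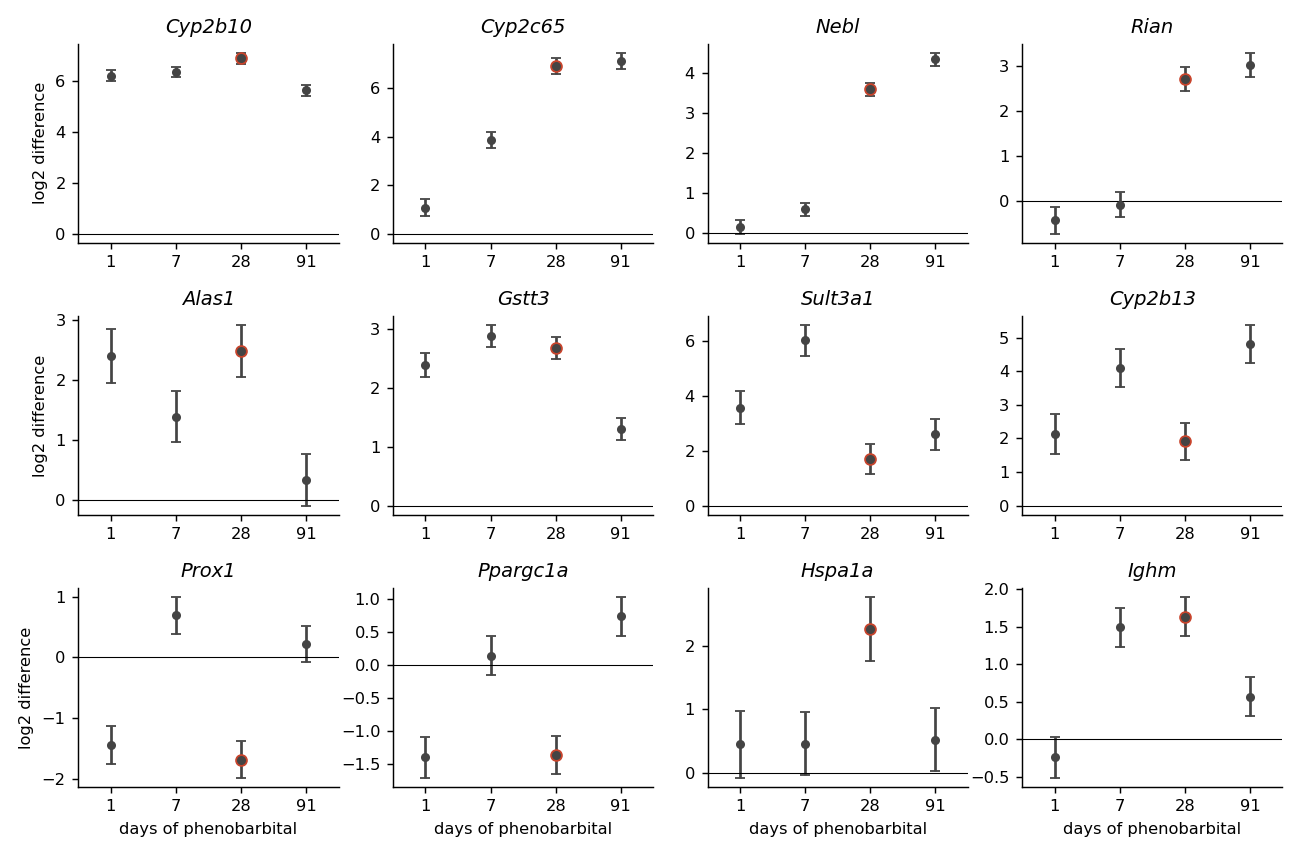
Log2 difference between phenobarbital and control (vertical axis) on days 1, 7, 28 and 91 for 12 genes, each point the fitted difference with its standard error as a bar. Nebl, Rian and Cyp2c65 are larger on days 28 and 91 than on days 1 and 7, whereas Hspa1a is at 0.45, 0.46, 2.27 and 0.52 and Alas1 falls to 0.34 at day 91.

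Several of the genes that changed most have little known to do with drug metabolism. Gm10419, a predicted gene, rose by 3.36 (adjusted p 8.46e-14), Pnliprp1, a pancreatic lipase relative, by 3.25 (adjusted p 4.19e-08), and 1700067K01Rik, an uncharacterised transcript, by 2.91 (adjusted p 2.02e-15). All 3 were kept with the covariate. Among the falls, Dnaic1, a dynein chain of cilia, fell by 1.66 and Enho, which encodes the secreted peptide adropin, by 1.65. Other probe sets of Enho above the filter gave -1.54 and 0.27, and 1 below it gave 0.09. Dnase2a, a lysosomal nuclease, fell by 1.57, Rfx4, a transcription factor, by 1.35 and Hectd2, a ubiquitin ligase, by 1.33. These 5 falls were kept with the covariate. A second probe set of Rfx4 gave 0.04, and those of Hectd2, below the filter, -0.17 and 0.36. Dnaic1 was at -0.99, -2.72, -1.66 and -0.02 and Enho at -0.74, -1.44, -1.65 and 0.03 on days 1, 7, 28 and 91.

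Probe sets that the annotation pairs with no gene symbol responded at a similar rate. Of 2887 that passed the filter 862 were called, 29.9%, of which 268 were higher and 594 lower. The largest rises were of 1443137_at, 1423556_at and 1438068_at, by 5.15, 3.22 and 2.12, and the largest fall was of 1446412_at, at -2.11.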

How the data were processed

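Whole-liver RNA of 39 arrays (Affymetrix, 3' labelling from 0.1 ug of total RNA) was available as a single table of log2 signals that the authors deposited, for 45101 probe sets of which 64 are controls. The software GCOS is named per the submitters' processing notes. The background correction, summarisation, normalization and genome build were each not given in the sources used here, and the table has no detection calls, so a low signal was not separated from background. Totals per array are no measure of depth for arrays.

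Probe sets were named through the platform annotation, updated by gene number (34754 matched, 0 symbols changed): 34958 had 1 symbol, 932 several and 9211 none, controls included. Only probe sets with 1 symbol stood for genes. Each gene was read from the probe set whose mean was highest over the 39 arrays, and 12580 of 18193 genes exceeded the array median on at least 4 arrays and were tested. The 8 group means were fitted with limma 3.58.1 (R 4.3.3; trended eBayes, 31 residual and 4.46 prior degrees of freedom) over all 39 arrays, which share 1 estimate of the spread, with Benjamini-Hochberg adjustment over the genes tested. The fit was tested on simulated data. Technical measures used exact 2-sided permutation tests.

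The members and the 45 pathway and 13 marker lists (1113 genes, 986 on the array, 921 tested, 10 found by an older symbol) were chosen with earlier results of these data known. No set test was run, and lists are described by counts and medians. The genes named follow a rule: the 15 largest rises and falls among called genes whose groups did not overlap, up to 5 called members per list with the largest differences (2 by p where none was called), the 5 highest and lowest differences against days 7 and 91, and a fixed set of CAR, imprinting, proliferation and DNA methylation genes. Cyp2c39 and Cyp2c68 were outside this rule and were chosen after their values were seen. Promoters are RefSeq's on GRCm38.p6.

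Alternatives changed the scaling, the filter, the choice of probe set, the variance model, the samples in the fit and the technical covariates, and left out arrays.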

Additional observations from a re-analysis of the deposited data

Results flagged for a closer look

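In 23 of 260 groups of 5 arrays, for the 130 genes named, 1 array stood apart from the other 4 by Dixon's criterion (a gap over 0.71 of the range), which chance meets in about 1 of 20 groups. Control 5, the control with the lowest 3' minus 5' difference, stood apart for Alas1 (11.05 against 9.05 to 9.49), Scarb1 (10.54 against 10.88 to 10.98), Rian (6.23 against 5.12 to 5.36), Hsf2 (5.71 against 6.94 to 7.18), Mlf2 (10.11 against 9.37 to 9.47) and Pacc1 (7.82 against 9.01 to 9.44). Control 3 stood apart for Cyp1a2 (12.96 against 13.29 to 13.36), Cyp2g1 (5.72 against 6.29 to 6.41), Fcgr2b (10.74 against 10.20 to 10.33) and Lgals4 (8.35 against 7.10 to 7.39). Control 4 did so for Hsd17b6 (12.06 against 12.24 to 12.29) and control 2 for Sult2a2 (7.20 against 3.59 to 4.31).

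Phenobarbital array 1 stood apart for Hspa1a (11.83 against 9.41 to 9.80), Dnajb1 (12.25 against 10.33 to 10.51), Csad (9.73 against 8.94 to 9.15), Nqo1 (6.98 against 7.26 to 7.34), Ugdh (12.82 against 12.62 to 12.67) and Psmb5 (11.62 against 11.69 to 11.71). Array 4 did so for Rian (7.34 against 8.25 to 8.54), Top2a (5.17 against 5.74 to 5.89) and Cyp2c55 (13.55 against 13.48 to 13.50), array 2 for Serpina7 (6.83 against 7.20 to 7.32) and array 3 for Colec11 (10.56 against 10.02 to 10.17).

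The differences of 1479 genes changed between days 7 and 28 by the test of the difference itself. The largest increases from day 7 to day 28 were of Cyp2c65 (3.06), Nebl (2.99), Rian (2.78), Meg3 (1.97) and Igfbp5 (1.91), and the largest decreases of Sult2a2 (-5.31), Sult3a1 (-4.32), Prox1 (-2.37), Evi5 (-1.64) and Malat1 (-1.64). Of these 10 all but Evi5 and Sult2a2 were kept with the 3' minus 5' covariate. The differences of 2727 genes changed between days 28 and 91. Day 28 exceeded day 91 most for Alas1 (2.14), Aacs (1.60), Obp2a (1.47), Gstt3 (1.38) and Mlf2 (1.36), and lay below it most for Cyp2b13 (-2.90), Ppargc1a (-2.09), Moxd1 (-2.03), Hsf2 (-1.95) and Pacc1 (-1.92), none kept with the covariate. Other probe sets above the filter gave smaller day 28 values for some of these genes. These were Igfbp5 -0.11 against 0.91, Evi5 -0.24 against -1.10, Aacs 0.26 and 1.00 against 1.32 and Hsf2 -0.57 against -1.32. Those of Malat1 ran from -0.29 to -1.41 against -1.0, so some were smaller and some larger. Outside the gene table, 268 probe sets without a symbol were higher and 594 lower at day 28.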

How the results depend on the processing

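The technical covariates and the choice of arrays moved the counts most. Against 1403 rises and 2276 falls, the 3' minus 5' covariate gave 411 and 616, the same covariate fitted to the day 28 arrays alone 87 and 35, the hybridisation controls as a covariate 796 and 1390, and the fit without controls 3 and 4 gave 592 and 1014. Quantile normalization gave 2350 rises and no filter on low signal 2164. Leaving out single arrays gave 997 (without control 4) to 1827 (without control 5) rises and 1739 (without control 3) to 2400 (without control 5) falls.

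For day 28 minus day 7, against 752 higher and 727 lower (1479), array weights gave 1629 and 1284 (2913), the 3' minus 5' covariate 58 and 46 (104), the hybridisation covariate 1 and 0 (1; 302 and 292 at an unadjusted p under 0.05 in limma) and leaving out controls 3 and 4 133 and 123 (256). Single arrays left out gave 393 to 1309 higher and 421 to 1119 lower, 814 to 2428 in all. For day 28 minus day 91, against 1578 and 1149 (2727), the same 4 settings gave 2909 and 1908 (4817), 0 and 0 (0 by limma; 1049 and 726, or 1775 in all, at an unadjusted p under 0.05), 75 and 60 (135) and 389 and 314 (703). Single arrays left out gave 981 to 2166 higher and 755 to 1446 lower, 1736 to 3612 in all. For probe sets without a symbol, against 268 and 594, quantile normalization gave 455 rises, no filter 949 and 1094, and single arrays left out 207 to 310 and 467 to 673.

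Of 212 named genes called, 103 were kept with the 3' minus 5' covariate, 154 with the hybridisation covariate, 131 without controls 3 and 4, 203 after quantile normalization, 193 after centring and 174 to 205 with a single array left out. Calls changed sign with the covariate on day 28 arrays alone for Alad (-0.02), Asgr1 (-0.04), Ass1 (0.10), Erbb3 (0.04), Mvd (-0.02), Stat3 (-0.01) and Uqcrc1 (-0.01). Without probe sets that can match several transcripts they did so for Apom (0.01), Cox5b (0.37), Lss (-0.02), Masp2 (-0.25), Ndufv1 (0.12) and Rpl22 (0.06), and with the mean of all probe sets for Cox5b (0.02), Ctnnb1 (0.13), Phgdh (-0.02), Rpl22 (0.04) and Slc35d1 (-0.04). The 3' minus 5' difference between groups was -0.239 to -0.167 and the hybridisation difference -0.429 to -0.273 with single arrays left out. No paired analysis was possible because the labels number no replicates and tie no treated array to a control. Signal over background was not given with the values, so low signals cannot be told from background.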

Other observations

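The counts of further gene lists at day 28 were as follows. Of 23 interferon response genes 1 rose and 0 fell, with 0 kept with the 3' minus 5' covariate, while 10 were higher at day 7. Of 28 oxidative phosphorylation genes 3 rose and 4 fell, and of these 0 and 1 were kept. Of 21 ribosomal protein genes 1 rose and 2 fell, and of 18 circadian clock genes 1 rose and 2 fell, with none of either list kept. Of 16 bile acid synthesis genes 3 fell and 0 rose, with 0 kept. Of 25 growth hormone axis and sex-biased genes 4 rose and 3 fell, with 2 and 0 kept. Of 14 imprinted genes outside the Dlk1-Dio3 cluster 1 rose and 1 fell, with none kept. Of 13 periportal genes 1 rose and 5 fell, a median of -0.15, with 0 and 1 kept. The urea cycle gene Ass1 was 8.58 ± 1.10 in controls and 7.10 ± 0.24 with phenobarbital (SD, n = 5 each), a fall of 1.49 (adjusted p 0.000983 in limma) with overlapping groups, and the call was lost with the covariate (-1.15). The background over all genes tested was 11.2% higher and 18.1% lower.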
